A study of Mus musculus with 9 samples.

Results

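Hairpin knockdown of Hnrnpk or of the long non-coding RNA lincRNA-p21 was compared with a control hairpin late in the reprogramming of mouse fibroblasts. The comparison takes the 4 knockdown libraries and 2 control libraries of days 9 and 12, chosen by their labelled hairpin and day, 6 of the 9 libraries of the series. The cells were embryonic fibroblasts of the C57Bl/6cJ strain, and all groups, the control included, received plasmids for Oct4, Sox2, Klf4 and c-Myc. The 3 arms differ in a short hairpin RNA carried by the pretroSuper vector: shluc against luciferase (control), shhnrnpk against Hnrnpk, and shlincp21 against lincRNA-p21, each with 1 library on days 6, 9 and 12. Each library is labelled as merged replicates, and each knockdown is represented by 1 named hairpin. The unsorted cultures hold cells that reprogram and cells that do not, so fewer cells of a type and less RNA per cell cannot be told apart.

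Reprogramming by these 4 factors, the combination that yields induced pluripotent stem cells, proceeds through loss of the fibroblast programme, gain of epithelial features and, late and in a minority of cells, activation of the endogenous pluripotency genes. lincRNA-p21 (gene symbol Trp53cor1) is transcribed next to Cdkn1a, the gene of the cell cycle inhibitor p21, and is induced by p53, a known barrier to reprogramming. Hnrnpk encodes an RNA- and DNA-binding protein known as a partner of lincRNA-p21 in gene repression, so the 2 knockdowns address the same regulatory axis.

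Levels are the deposited normalized signal, and differences are in log2(signal + 10), which understates the change of low genes. With 1 or 50 added in place of 10, Rasgrp2 had 3.66 or 1.08, Dppa4 3.49 or 0.87, Nodal 3.42 or 1.25 and Axin2 2.21 or 0.69. Of the 12550 genes in the table, 12541 reached a mean of 20 and were tested. The column totals differ by 0.0252%. Of values of 1000 or more, 91.5% recur in another gene or library, and the 374 values of 40000 or more take 98 distinct values. The read depth is unknown. With 1 library per arm and day, the tests measure how far the arms and days depart from a common difference, not the spread between replicate cultures. For some other cell types few markers were tested: 3 of 13 for macrophages, 6 of 14 for endothelium and 3 of 11 for adipocytes. Their summed signal over the late knockdown libraries ran from 3250 to 5173, 3604.5 to 4015.5 and 267 to 345.5, against controls of 3829.5 and 3416.5, 4197.5 and 3698, and 339.5 and 320.5 on days 9 and 12, and their part in the results was not tested. Within the endothelial list 1 of 6 genes, the VEGF receptor Flt1, was called higher in the fit with a term for each arm (116 and 138.5 in the control, 197 to 337.5 in the knockdowns).

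The targeted genes were examined first. Hnrnpk signal was 26944 on day 9 and 23376 on day 12 in the control, 17016 and 12793 under its own hairpin, and 29972 and 27873 under the lincRNA-p21 hairpin. Both libraries of the Hnrnpk arm were thus the lowest, and the mean log2 difference from control was −0.77 in that arm and 0.20 in the other; the arms differed by −0.97 (SE 0.12, limma adjusted p = 0.0159). Trp53cor1 stood at 237 and 250 in the control, 137 and 119.5 under the Hnrnpk hairpin, and 122 and 97 under the lincRNA-p21 hairpin. The lincRNA was therefore lower in all 4 knockdown libraries, by a mean of −0.98 (SE 0.16, adjusted p = 0.0725 in limma), with −0.88 in the Hnrnpk arm and −1.09 in the lincRNA-p21 arm. Cdkn1a, its neighbour, was 11815 in both controls and between 11172.5 and 11286.5 in the knockdowns, a difference of −0.08 (SE 0.08, limma adjusted p = 0.584).

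In the late libraries of both knockdowns, signal was higher than in the controls of the same day for many pluripotency genes, cell cycle genes and interferon-stimulated genes (the last with larger medians under the Hnrnpk hairpin), and lower for part of the collagen, BMP and hypoxia-responsive genes. The largest differences were in genes of the naive and primed pluripotent state, such as Utf1, Lin28a, Dppa5a and Tdgf1, whose log2 differences were between 3.23 and 3.84. No single gene passed the planned test of a shared late difference, which fitted 1 knockdown term and the day: 0 of 12541 genes were called at an adjusted p of 0.05 in limma (0%), 2738 had an unadjusted p under 0.05 (1477 higher, 11.8%, and 1261 lower, 10.1%) where 627 would be expected, and 560 had an adjusted p under 0.1, the smallest being 0.0651. In a fit with a separate term for each arm, which removes the difference between the hairpins from the error, the mean of both knockdowns differed from control for 1965 genes in limma (15.7%), of which 1018 were higher (8.12%) and 947 lower (7.55%). These calls include all 560 genes above, and 169 higher and 44 lower genes differed by at least 2-fold on the log2(signal + 10) scale. The count of 1965 moved to 645 without the lincRNA-p21 library of day 12, 663 without that of day 9, 1012 and 3086 without the control of day 12 and day 9, and 3899 without the Hnrnpk library of day 9. Calls below are those of the fit with a term for each arm, a choice made once the fit with 1 knockdown term had called no gene, and both arms share the same controls. Such a call refers to the mean of both knockdowns and can rest mainly on 1 arm. Differences and SEs of single genes are those of the fit with 1 knockdown term, whose SE includes the difference between the hairpins: for Dppa5a it is 0.77, against 0.33 with a term for each arm.

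The genes with the largest difference at their weakest knockdown library were Utf1, Lin28a, Mycn, Tdgf1, Rasgrp2, Dppa5a, Gbx2, Crmp1, Dnmt3b and Tcf15, all called higher with adjusted p between 0.00271 and 0.00482 in limma. They were chosen for the size of that difference. Utf1, a chromatin-associated factor of undifferentiated cells, stood at 17 and 52.5 in the control on days 9 and 12, 664 and 955.5 with the Hnrnpk hairpin, and 198.5 and 635 with the lincRNA-p21 hairpin. Its difference was 3.73 (SE 0.44). Lin28a, an RNA-binding protein that blocks let-7 maturation, stood at 21 and 57, then 574 and 1374, then 159.5 and 685 in the same order. For both genes the control of day 12 was also below the knockdown libraries of day 9, which the choice of genes favours.

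Tdgf1, the Nodal co-receptor Cripto, had signals of 157.5 and 204.5 in the control, 1662 and 3362 with the Hnrnpk hairpin and 703.5 and 2465 with the lincRNA-p21 hairpin (difference 3.23, SE 0.38). Dnmt3b, a de novo DNA methyltransferase, had 191.5 and 186, 1864.5 and 2395.5, and 598 and 1428 (2.83, SE 0.47). In the control, Dnmt3b was flat from day 9 to day 12, while in the lincRNA-p21 arm its day 12 signal was above that of day 9. Dppa5a, an RNA-binding marker of naive pluripotency, had 10 and 44, 437 and 2037.5, and 63.5 and 715.5 (3.84, SE 0.77), with the day 9 library of the lincRNA-p21 arm nearest to the control. Mycn, a Myc family factor, had 33.5 in both controls and between 195 and 675 in the knockdowns.

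The promoters of 4 of these genes are shown because the genes differ widely in the density of CpG, the dinucleotide on which Dnmt3b acts. Each sequence is the 250 bases before the RefSeq transcription start (GRCm38.p6), 5′ to 3′ in the sense of the transcript, with CpG in capitals. Utf1 is at chr7:139943606-139943855 (plus strand), Lin28a at chr4:134018817-134019066 (minus), Tdgf1 at chr9:110946159-110946408 (minus) and Dnmt3b at chr2:153649199-153649448 (plus).
Utf1: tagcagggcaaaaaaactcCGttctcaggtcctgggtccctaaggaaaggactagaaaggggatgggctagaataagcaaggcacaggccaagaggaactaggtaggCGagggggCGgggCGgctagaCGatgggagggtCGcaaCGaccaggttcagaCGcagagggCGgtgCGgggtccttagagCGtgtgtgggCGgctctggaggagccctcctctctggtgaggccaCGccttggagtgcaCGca
Lin28a: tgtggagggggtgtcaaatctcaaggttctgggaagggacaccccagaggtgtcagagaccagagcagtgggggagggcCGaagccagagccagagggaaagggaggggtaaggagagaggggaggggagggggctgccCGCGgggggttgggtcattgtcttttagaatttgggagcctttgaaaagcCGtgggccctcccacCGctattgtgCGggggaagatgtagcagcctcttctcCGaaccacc
Tdgf1: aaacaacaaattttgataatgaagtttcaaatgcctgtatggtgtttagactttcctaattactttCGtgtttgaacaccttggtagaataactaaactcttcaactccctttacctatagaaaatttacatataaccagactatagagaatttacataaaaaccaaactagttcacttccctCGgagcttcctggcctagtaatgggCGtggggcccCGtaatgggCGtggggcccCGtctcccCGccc
Dnmt3b: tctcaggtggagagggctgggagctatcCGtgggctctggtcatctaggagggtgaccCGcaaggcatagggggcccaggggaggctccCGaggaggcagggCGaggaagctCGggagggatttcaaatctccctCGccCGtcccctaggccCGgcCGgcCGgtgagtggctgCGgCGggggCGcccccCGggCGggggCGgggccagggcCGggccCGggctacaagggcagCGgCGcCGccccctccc
The windows hold 14 CpG for Utf1, 7 for Lin28a, 7 for Tdgf1 and 21 for Dnmt3b. The median over 11960 windows of 9287 genes of the table was 16, against 9 over 17 windows of the core pluripotency list and 5 over 16 windows of the late pluripotency list. The counts describe the sequence only, since methylation was not measured here.

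**Figure D1:**
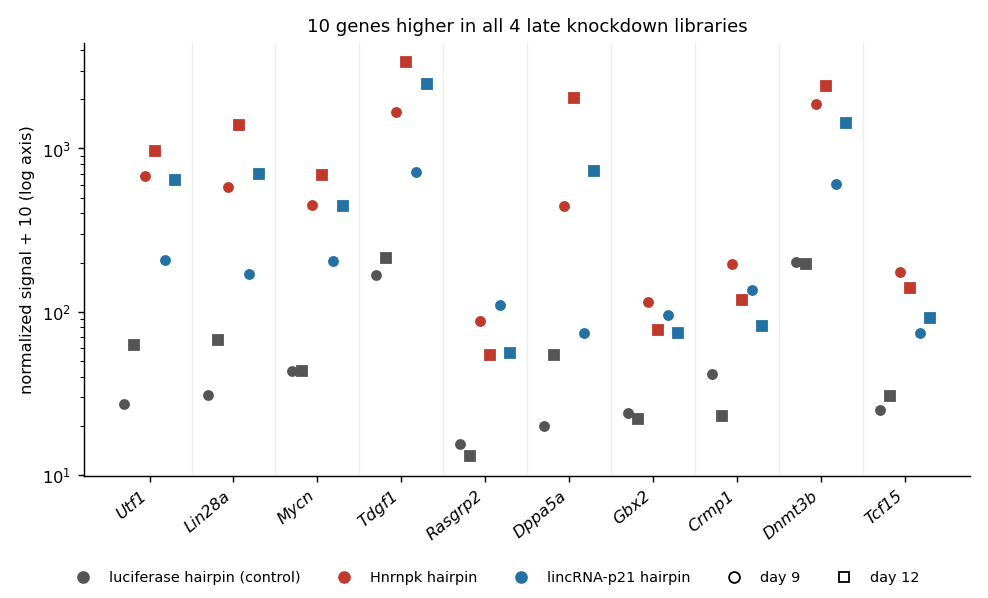
Normalized signal + 10 (log axis) of the 10 genes with the largest differences at their weakest late knockdown library. Each point is 1 library (circles day 9, squares day 12; grey luciferase, red Hnrnpk and blue lincRNA-p21 hairpin). For Utf1 the controls sit at 17 and 52.5 before the addition of 10 and the knockdowns between 198.5 and 955.5.

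The remaining genes of this group are not pluripotency markers as a class, and 3 of them were higher in the knockdowns on day 9 than on day 12. Rasgrp2, an activator of the Rap1 GTPase, had 5.5 and 3 in the control, 78 and 44.5 with the Hnrnpk hairpin and 100 and 46 with the lincRNA-p21 hairpin (2.38, SE 0.25). Gbx2, a homeobox factor of early embryo and stem cells, had 14 and 12, 104.5 and 67, and 85 and 64 (1.95, SE 0.21). Crmp1, a cytoskeletal regulator of growing axons, had 31.5 and 13, 184.5 and 107.5, and 125 and 71.5 (2.03, SE 0.25). In every arm these 3 genes were lower on day 12 than on day 9. Tcf15, a factor linked to the exit from naive pluripotency, had 15 and 20.5, 166 and 129.5, and 64 and 82 (2.04, SE 0.38).

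Across the core pluripotency list, 12 of 16 tested genes were higher and 0 lower, with a median difference of 1.22 against 0 for all genes, of which 8.12% were called higher and 7.55% lower. This list and those below were chosen with earlier results of these data known, so their counts are a description and not a test. Esrrb, a nuclear receptor of naive cells, stood at 44 and 72 in the control, 265 and 466 with the Hnrnpk hairpin and 131 and 359 with the lincRNA-p21 hairpin (2.11, SE 0.29). Sall4, a zinc finger factor, stood at 276 and 353.5, 1161.5 and 1183.5, and 573 and 1018 (1.57, SE 0.26). Every knockdown library was above both controls for both genes, which were named for the size of their difference. Of 17 tested late pluripotency markers, 12 were higher and 1 lower, with a median of 0.71. Zscan10, a stem cell zinc finger factor, had 35 and 28 in the control, 294 and 379, and 120.5 and 219 (2.56, SE 0.40). Dnmt3l, the cofactor of de novo methylation, had 2.5 and 10, 65.5 and 282, and 13 and 114 (2.49, SE 0.62), and Dppa4 had 2 and 3, 33.5 and 108.5, and 9 and 59, so that for both the day 9 library of the lincRNA-p21 arm was close to the controls.

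The 4 reprogramming factors themselves were not higher. Gene-level signals do not separate plasmid from endogenous transcripts. Myc, the most divergent, had 26978 and 32439 in the control, 17713 and 16340 with the Hnrnpk hairpin and 21438.5 and 24938 with the lincRNA-p21 hairpin (−0.58, SE 0.18), and Sox2 had 17713 and 16340, 12952 and 12194, and 14212.5 and 13595 (−0.36, SE 0.09); both were called lower. Pou5f1 (Oct4) had the same signal of 44876 in all 3 arms on day 9. On day 12 it had 90514 in the control, 42046.5 and 48090. The value of 90514 is the midpoint of the highest value of the table, 118715, and 62313, and without that library the difference was 0. Klf4 was 39217 in both controls and in both libraries of the lincRNA-p21 arm, and 25958 and 22588 in the Hnrnpk arm.

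Genes that mark the primed state and the first lineage steps were among the higher ones. Of 20 early lineage genes listed, only 8 were tested, and of these 4 were higher and 0 lower, with a median of 0.77. Otx2, a factor of the epiblast, had 24 and 46 in the control, 179 and 448 with the Hnrnpk hairpin and 89 and 302 with the lincRNA-p21 hairpin (2.38, SE 0.33). Fgf5, a growth factor of primed epiblast, had 8.5 and 8, 52 and 175, and 18 and 80.5 (2.01, SE 0.53). Eomes, a T-box factor, was between 46 and 153.5 in the knockdowns and 24 and 22 in the control, and Tfap2c, an AP-2 factor, between 179 and 361.5 against 96 and 132.

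Within the TGF-beta superfamily, Nodal, Lefty1 and Lefty2 were called higher and Bmp2 and Bmp6 lower. Of 41 tested pathway genes, 4 were higher and 8 lower, with a median of −0.11. Of all genes 8.12% were called higher and 7.55% lower, so the share called higher was near that of all genes. Nodal, the ligand that signals through Activin receptors and Cripto, had 6 and 7 in the control, 97 and 165 with the Hnrnpk hairpin and 33.5 and 73 with the lincRNA-p21 hairpin (2.46, SE 0.47). Its secreted inhibitors and targets Lefty1 and Lefty2 were also called higher, with 74 and 90.5 against 108 to 718.5, and 83.5 and 86 against 127 to 551.5. The BMP ligands Bmp2 and Bmp6, named for the size of their difference, had every knockdown library below the controls. Bmp2 had 412 and 720 in the control and 158 to 305 in the knockdowns (−1.25, SE 0.28). Bmp6 had 549 and 721 against 297 to 332 (−0.96, SE 0.12).

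In the list of DNA methylation enzymes and associated factors, 6 of 19 were higher and 1 lower, with a median of 0.12. Tet1, which oxidizes methylcytosine, had 394.5 and 391 in the control, 1169 and 950.5, and 689.5 and 1015.5 (1.24, SE 0.20). Uhrf1, which recruits the maintenance methyltransferase to replicated DNA and reads H3K9 methylation, had 4391 and 3137.5, 5750 and 4210, and 5825.5 and 5059.5 (0.48, SE 0.10). Within the H3K9 list 3 of 20 genes were higher and 0 lower (median 0.06), a share near the 15.7% of all genes called in either direction. Those were Uhrf1, the methyltransferase Suv39h2 (0.43, SE 0.12) and the heterochromatin protein Cbx1 (0.40, SE 0.09).

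Mitotic genes stood apart in the number of members called. Of 28 tested genes, 23 were higher and 0 lower, and all 28 differences were above 0, from 0.23, with a median of 0.53. Ccnb1, the B-type cyclin of mitotic entry, had 3247.5 and 1950 in the control, 5629 and 6324 with the Hnrnpk hairpin and 5099 and 4367 with the lincRNA-p21 hairpin (1.07, SE 0.20). Birc5 (survivin) had 1194 and 651, 1833.5 and 1577, and 1591.5 and 1315 (0.82, SE 0.16). In the control these signals were lower on day 12 than on day 9, and the list's median difference was 0.41 on day 9 and 0.76 on day 12 with the Hnrnpk hairpin and 0.31 and 0.59 with the lincRNA-p21 hairpin. For G1/S and replication, 13 of 32 were higher and 1 lower, with a median of 0.40 that was 0.24 on day 9 alone. The helicase subunit Mcm5 had 3344 and 2126.5, 5505 and 4429.5, and 4733 and 4360.5 (0.83, SE 0.12), and the origin factor Orc1 had 256 and 185.5 against 353.5 to 555.5 (0.99, SE 0.21).

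**Figure D2:**
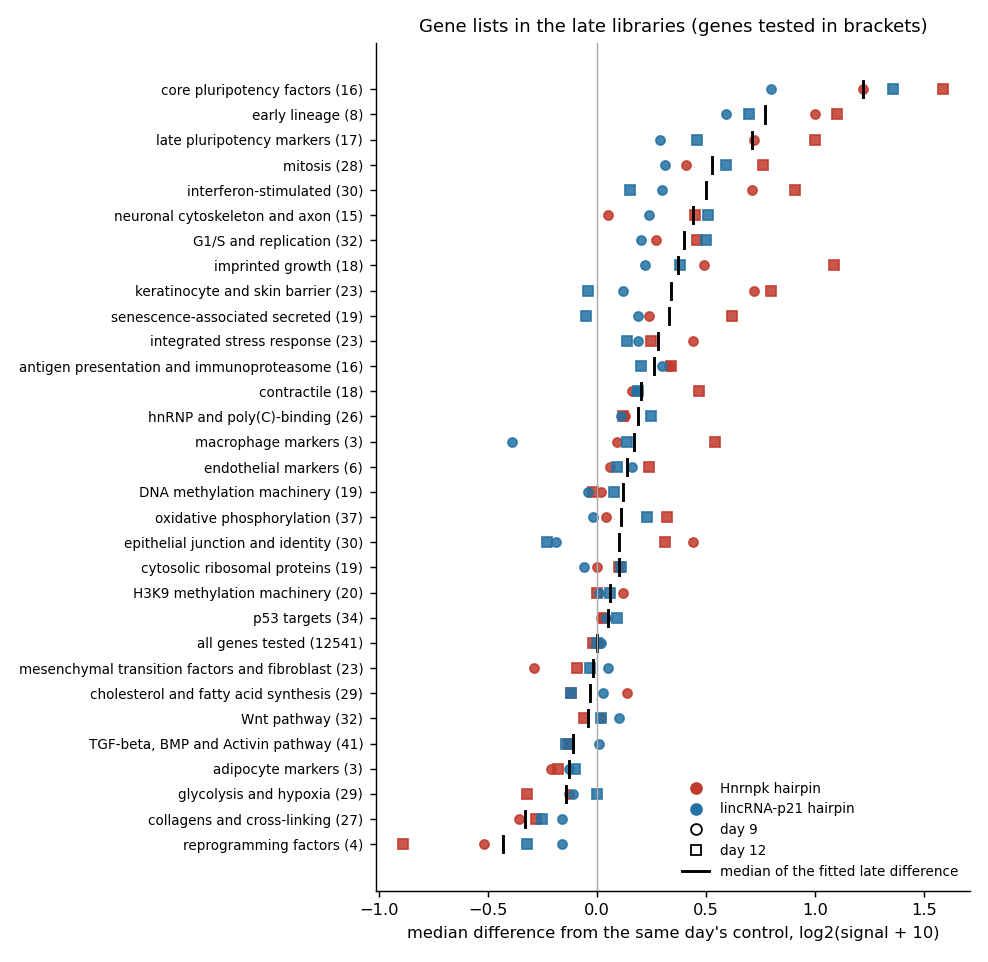
Median over each gene list of the log2 difference from the control of the same day, for each late knockdown library. The medians over all genes tested lie at −0.02 to 0.02, those of the core pluripotency list at 0.80 to 1.59 and those of the collagen list below 0.

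Of 30 tested interferon-stimulated genes, which are induced by antiviral signalling, 18 were called higher and 0 lower, with a median of 0.50. By arm, the list's median stood at 0.71 (day 9) and 0.91 (day 12) with the Hnrnpk hairpin, against 0.30 and 0.15 with the lincRNA-p21 hairpin. In the test between the arms, 9 of the 30 were called higher in the Hnrnpk arm, against 2.78% of all genes. Gbp2, an interferon-induced GTPase, had 93 and 104 in the control, 529.5 and 642 with the Hnrnpk hairpin and 355.5 and 268.5 with the lincRNA-p21 hairpin (2.01, SE 0.34). Isg15, a ubiquitin-like modifier, had 24 and 20.5, 121 and 282.5, and 47.5 and 35 (1.63, SE 0.74), so the lincRNA-p21 arm lay nearer to the control than the Hnrnpk arm. Irf7, the regulator of type I interferon genes, had 32 and 53.5, 149.5 and 268.5, and 94 and 75, and Oasl2 had 43 and 49 against 91.5 to 353. In antigen presentation 4 of 16 were higher and 0 lower (median 0.26). These were the immunoproteasome subunits Psmb8 (27 and 31 against 83.5 to 141.5), Psmb9 and Psmb10, and the peptide transporter Tap1. The promoters of Gbp2 (chr3:142620413-142620662, plus strand) and Isg15 (chr4:156200819-156201068, minus) are shown because they hold the core of the interferon-stimulated response element, searched as GAAA, any 2 bases and GAAA on either strand, in capitals; build, length and orientation are as above.
Gbp2: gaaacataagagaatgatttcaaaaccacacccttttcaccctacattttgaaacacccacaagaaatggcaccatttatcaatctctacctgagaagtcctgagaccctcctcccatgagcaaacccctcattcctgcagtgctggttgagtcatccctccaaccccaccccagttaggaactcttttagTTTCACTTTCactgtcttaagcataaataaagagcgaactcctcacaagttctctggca
Isg15: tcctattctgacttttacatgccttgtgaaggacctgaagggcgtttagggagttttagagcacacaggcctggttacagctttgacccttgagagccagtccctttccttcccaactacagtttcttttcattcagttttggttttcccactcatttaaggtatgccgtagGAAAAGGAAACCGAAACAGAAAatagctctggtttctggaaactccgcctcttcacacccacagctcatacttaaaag
That motif was found in 9 of 27 windows of the list (33.3%) against 301 of the 11960 windows (2.52%), and Isg15 holds 3 overlapping matches.

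Some matrix genes were lower. Of 27 collagen and cross-linking genes, 8 were called lower and 1 higher, with a median of −0.33. Col6a3, a collagen VI chain, had 9340 and 9277 in the control, 4364 and 4523 with the Hnrnpk hairpin and 6691 and 5458 with the lincRNA-p21 hairpin (−0.84, SE 0.18). Col12a1, a fibril-associated collagen, had 5028.5 and 4498 against 2210 to 4052 (−0.65, SE 0.22), and Loxl3, a cross-linking oxidase, had 1835.5 and 2117 against 1092.5 to 1467.5 (−0.58, SE 0.10). The exception was Col18a1, a basement membrane collagen, with 1279.5 and 1418 in the control and 1740.5 to 3055 in the knockdowns (0.79, SE 0.15). The list of mesenchymal transition factors and fibroblast genes, which also holds matrix and secreted genes, had 1 of 23 higher and 2 lower. Its median was −0.02, and the secreted protease Mmp2 was among the lower ones (−0.62, SE 0.29).

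Glycolysis and hypoxia genes were called lower in 7 of 29 cases and higher in 2, with a median of −0.14. Egln3, an oxygen-sensing prolyl hydroxylase and itself a hypoxia-induced gene, had 11223 and 18590 in the control, 6111 and 8447, and 6498.5 and 10809 (−0.90, SE 0.12). Ndufa4l2, a mitochondrial hypoxia target, had 1963.5 and 3731, 1177 and 1949, and 1504.5 and 2486.5 (−0.66, SE 0.15), and the aldolase Aldoc followed the same order (−0.61, SE 0.11). The neuronal-type glucose transporter Slc2a3 went the other way, with 5327 and 7068.5, 13512.5 and 24461, and 6221 and 15645 (1.12, SE 0.34). Eno1, the other gene called higher, reached the table's ceiling of 118715 in the lincRNA-p21 library of day 12. Its value of 85013 in the Hnrnpk library of day 12 and the lincRNA-p21 library of day 9 is the midpoint of that ceiling and 51311. The Egln3 promoter (chr12:54203875-54204124, minus strand) is shown with the hypoxia response core ACGTG in capitals.
Egln3: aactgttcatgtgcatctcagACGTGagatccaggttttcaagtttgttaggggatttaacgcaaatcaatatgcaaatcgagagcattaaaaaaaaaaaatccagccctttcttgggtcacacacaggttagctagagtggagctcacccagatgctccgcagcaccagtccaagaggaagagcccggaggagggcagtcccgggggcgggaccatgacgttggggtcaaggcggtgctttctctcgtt
That core was found on either strand in 19 of 41 windows of the list (46.3%) against 2560 of 11960 (21.4%).

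Other genes with the largest differences below the control at their weakest library were Sel1l3, Aatk, Zfr2, Slc16a11, Tlx2, Galnt15, Sertm1, Edn2 and Sost, all called lower. Sost alone belongs to one of the gene lists, and their differences, −1.13 to −1.93, are smaller than those of the 10 higher genes. Sel1l3 had 198 and 375 in the control, 49 and 101.5 with the Hnrnpk hairpin and 80 and 122.5 with the lincRNA-p21 hairpin (−1.59, SE 0.21). Aatk, a kinase, had 467 and 628, 177.5 and 183, and 211.5 and 285 (−1.32, SE 0.19). By the way these genes were chosen, every knockdown library was below the control of the same day. Edn2, an endothelin peptide, had 164.5 and 296.5, 85 and 93.5, and 67 and 121 (−1.21, SE 0.19). Sost, the secreted Wnt antagonist sclerostin, had 276.5 and 156, 33.5 and 15, and 99.5 and 81 (−1.93, SE 0.57), with the Hnrnpk arm lower than the lincRNA-p21 arm.

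**Figure D3:**
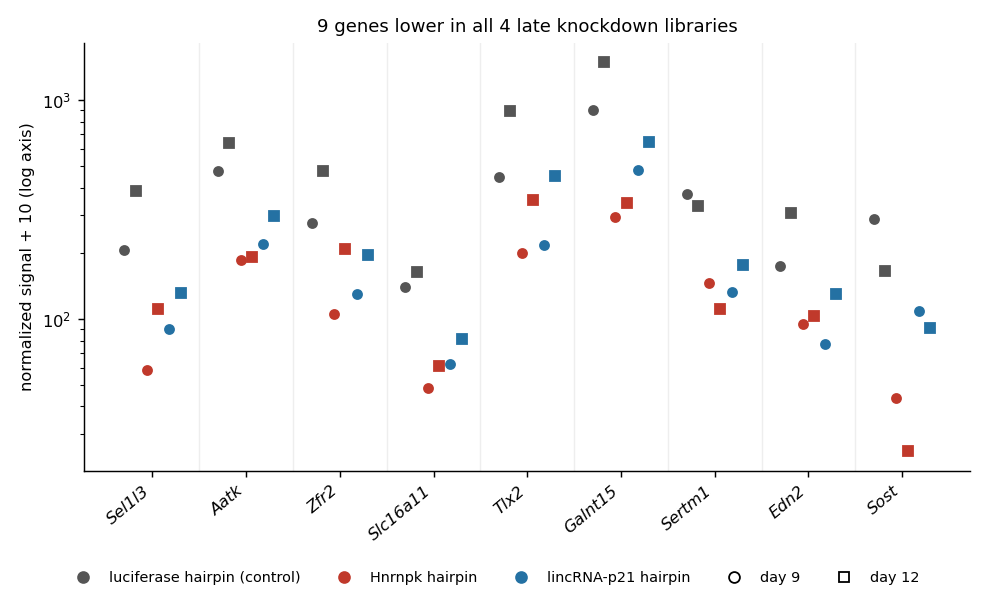
Normalized signal + 10 (log axis) of 9 genes chosen for a large negative difference at their weakest late knockdown library, with points as for the higher genes. By this choice the control lies above both knockdown libraries on each day. Sel1l3 controls are 198 and 375 before the addition of 10 and the knockdowns 49 to 122.5.

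In the Wnt pathway, 6 of 32 genes were higher and 1, Sost, was lower, with a median of −0.04. Axin2, the feedback inhibitor used as a readout of the pathway, had 8 and 10 in the control, 52.5 and 56 with the Hnrnpk hairpin and 41.5 and 33.5 with the lincRNA-p21 hairpin (1.54, SE 0.28). The receptor Fzd10 (21 and 12 against 41.5 to 65), the feedback deacylase Notum (275 and 228 against 434 to 571) and the nuclear effector Tcf7 (60 and 50 against 106.5 to 142.5) were higher as well. On day 6 Axin2 was already 110 in the control against 291 and 241, at a higher level in every arm.

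Of neuronal cytoskeleton genes, 6 of 15 were higher and 1 lower (median 0.44), among them the neurofilament subunits Nefl (192 and 158.5 against 335.5 to 1061.5) and Nefm, and the tubulin Tubb3 (210.5 and 174.5 against 328 to 709). Of imprinted growth genes, 9 of 18 were higher and 0 lower, with a median of 0.37 that was 0.76 on day 12 alone; Peg10, a retrotransposon-derived gene, had 753 and 1019, 3826 and 5860, and 2135 and 2349 (1.88, SE 0.38). Of integrated stress response genes, 10 of 23 were higher and 1 lower (median 0.28), with Trib3, a pseudokinase, at 62 and 76 against 143.5 to 276. Of contractile genes, 5 of 18 were higher and 2 lower (median 0.20), with calponin Cnn1 at 22 and 21 against 54 to 116 and the slow troponin Tnni1 at 864.5 and 638.5 against 201.5 to 473. Of senescence-associated secreted factors, 7 of 19 were higher and 1 lower (median 0.33). By arm, their medians on days 9 and 12 were 0.24 and 0.62 with the Hnrnpk hairpin and 0.19 and −0.05 with the lincRNA-p21 hairpin. Between the arms, 5 of the 19 were called higher under the Hnrnpk hairpin, against 2.78% of all genes. Among hnRNP genes 2 were higher and 2 lower of 26, a share near the 15.7% of all genes. The counts were 2 higher and 0 lower of 37 for oxidative phosphorylation and 1 higher and 1 lower of 19 for cytosolic ribosomal proteins. Only those 19 of the 49 ribosomal protein genes listed were tested. The lower one, Rplp0, stood at the highest value of the table, 118715, in both controls. No member of the cholesterol list was called in either direction (0 of 29). The p53 list had 7 of 34 higher and 1 lower, with a median of 0.05. The lower one was Trp53cor1, the target of the lincRNA-p21 hairpin. Between the arms, 5 of the 34 were called higher under the Hnrnpk hairpin and 1 lower, against 2.78% and 2.39% of all genes.

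The late differences were set against those of day 6. No gene passed the test of that change: 0 were called in limma, with a smallest adjusted p of 0.137 and 1765 unadjusted p under 0.05. In that test, too, the difference between the hairpins counts as error. On day 6 the core pluripotency list had a median difference of 0.03, mitosis −0.49, G1/S −0.34, collagens 0.18, interferon-stimulated genes 0.37 and contractile genes 0.64. The day 6 medians of senescence-associated secreted, keratinocyte and integrated stress response genes were 0.81, 0.66 and 0.42. These were larger than their late medians of 0.33, 0.34 and 0.28. For mitosis, G1/S and collagens the sign on day 6 was thus opposite to that of the late days, and for interferon-stimulated genes it was the same. The mean level over each list shows how each arm ran over the days. For mitosis the control went from 11.21 on day 6 to 10.75 and 10.24, while the Hnrnpk arm went from 10.54 to 11.18 and 10.99 and the lincRNA-p21 arm from 10.76 to 11.05 and 10.85. For the core pluripotency list the control went from 6.68 to 7.29 by day 12, the Hnrnpk arm from 6.85 to 9.03 and the lincRNA-p21 arm from 6.76 to 8.72. The genes with the smallest p were Kif15, Blm and Pou3f1 on the higher side and Ppap2a, Wls and Pla2g7 on the lower side. Kif15, a mitotic kinesin, had a control signal of 1527 on day 6 against 771 and 817, and late controls of 1129 and 752 against 1018.5 to 1404.5 (change 1.33, SE 0.18). Blm, a DNA helicase, changed by 1.39 (SE 0.19) and Pou3f1 (Oct6), a factor of primed cells, by 2.67 (SE 0.36), from 96 against 42 and 51 on day 6 to 63.5 and 50 against 171.5 to 239. Wls, which carries Wnt ligands to the surface, had 3759 against 6880 and 7051 on day 6 and 6053.5 and 7116.5 against 4786 to 5052 later (−1.30, SE 0.16).

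**Figure D4:**
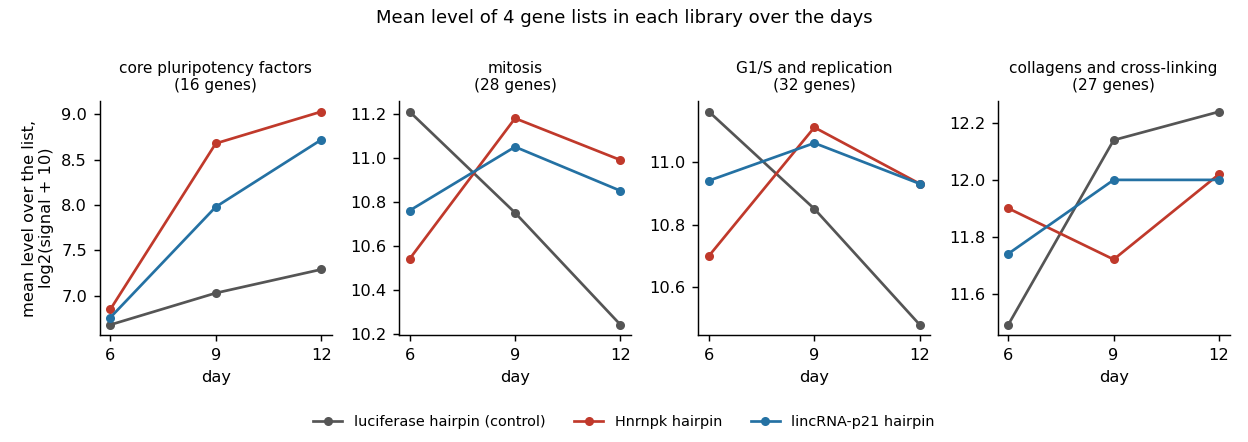
Mean log2(signal + 10) over 4 gene lists in each library against the day, 1 point per library and 1 line per arm. In the mitosis panel the control goes from 11.21 to 10.24 between days 6 and 12, and the lines cross between days 6 and 9.

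Between days 9 and 12 the shared difference was not found to change. In limma 0 genes were called and 290 had an unadjusted p under 0.05, fewer than the 627 expected. Because the difference between the hairpins counts as error in this test, a count of 0 does not show that no gene changed. The genes with the smallest p were Fxyd6, Chchd2 and Enpp3 on the higher side and Pou5f1, Ahnak and Nat8l on the lower side. Fxyd6, a regulator of the sodium pump, had 7160 and 6909.5 in the control, 3206 and 5229, and 3240 and 4732, so the gap was smaller on day 12. Nat8l, the N-acetylaspartate synthase, had 3372.5 and 4025, 3611 and 2496.5, and 3390 and 2584, with the arms together on day 9 and apart on day 12. For the core pluripotency list the median difference was 1.22 and 1.59 on days 9 and 12 with the Hnrnpk hairpin and 0.80 and 1.36 with the lincRNA-p21 hairpin.

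The hairpins also differed from each other late. In limma 649 genes (5.18%) differed between the arms, 349 higher under the Hnrnpk hairpin (2.78%) and 300 lower (2.39%), with a smallest adjusted p of 0.00769. The count was 59 and 62 without the lincRNA-p21 library of day 9 and of day 12, 986, 2032, 2006 and 2000 without the Hnrnpk library of day 12 or day 9 or the control of day 9 or day 12. Epithelial keratins led the higher side. Krt5, of basal keratinocytes, had 74.5 and 55 in the control, 804 and 1368.5 with the Hnrnpk hairpin and 120 and 85.5 with the lincRNA-p21 hairpin, and Krt18, of simple epithelium, had 221 and 422, 1048.5 and 4980, and 184.5 and 928.5. Of the keratinocyte list 13 of 23 genes were higher in the Hnrnpk arm and 0 lower, and of the epithelial list 17 of 30 were higher and 0 lower. Against control the epithelial medians on days 9 and 12 were 0.44 and 0.31 with the Hnrnpk hairpin and −0.19 and −0.23 with the other, and the mean of both knockdowns was called higher for 5 and lower for 1 (8 and 0 for keratinocyte genes). Cdh1 (E-cadherin) differed as well, with 1135 and 2195, 3214.5 and 4971, and 1360.5 and 2396 (1.14, SE 0.11, limma adjusted p = 0.0119). On the lower side Arhgap36, a Hedgehog pathway activator, had 1516.5 and 600.5, 395.5 and 136.5, and 1549.5 and 765, and Prkcb, a protein kinase C, had 811 and 678.5, 268 and 158.5, and 967 and 619.5. For Arhgap36 and Prkcb the lincRNA-p21 arm lay close to the control, and the mean of both knockdowns describes neither arm. Of the 10 higher genes above, the arms differed for Utf1 (1.14, limma adjusted p = 0.0495), Lin28a (1.39, adjusted p = 0.0255) and Dppa5a (2.05, adjusted p = 0.0358), all with the Hnrnpk arm higher. For Gbx2 the difference was 0.16 (SE 0.20) and for Rasgrp2 −0.18 (SE 0.25).

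**Figure D5:**
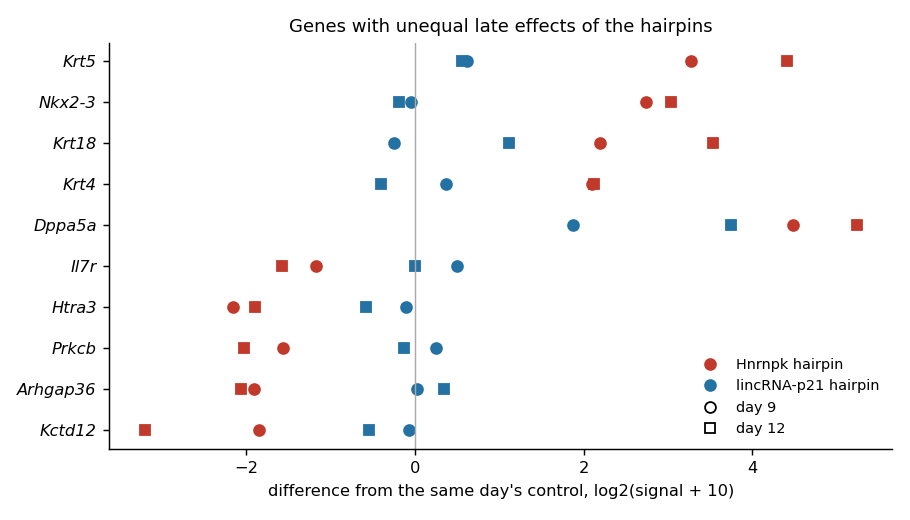
Log2(signal + 10) difference from the control of the same day for the 5 genes each way with the largest called differences between the hairpins among those with a mean of at least 50, 1 point per library (red Hnrnpk, blue lincRNA-p21; circles day 9, squares day 12). For Krt5 the mean is 3.84 in the Hnrnpk arm and 0.59 in the lincRNA-p21 arm. By the choice of genes the points of the arms lie apart.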

How the data were processed

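RNA was sequenced from 9 libraries, 1 for each of 3 hairpins on days 6, 9 and 12. The values are a normalized signal per gene as deposited by the authors. The submitters' processing notes name RSEM 1.2.12, Bowtie 1.0.1 and mm10 without their roles, and how replicates were merged and values scaled, and the read depth, are not given in the sources used here. Deposited values move in steps of 0.5 with a shared maximum, so a change in total RNA per cell cannot be seen and no count test was used.

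Signals were used as log2(value + 10). Genes with a mean of at least 20 were tested with limma 3.58.1 in R 4.3.3 with an intensity trend, adjusted by Benjamini-Hochberg at 0.05, after the code was tested on simulated data. The planned fit had 1 knockdown term and the day over the 6 late libraries. Changes between days used a knockdown-by-day term, the day 6 comparison all 9 libraries, and the hairpin comparison a term for each arm. The term for each arm was also fitted for the shared difference, and the settings varied within that fit were chosen after seeing the data. The 30 gene lists and the members were chosen with earlier results of these data known. The share of all genes called is given at the first list counts.

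Genes were named by rule: the targets, the 10 each way with the largest difference at their weakest late library, up to 5 per list by size of difference, and the 3 (days) or 5 (hairpins) leading genes each way. A result for 1 of the named genes is left out. Promoter windows came from the RefSeq table of GRCm38.p6.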

Additional observations from a re-analysis of the deposited data

Results flagged for a closer look

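The late effects of the hairpins differed for 649 genes by the limma test of the difference itself, at an adjusted p of 0.05. The 5 genes with the largest differences on the higher side of the Hnrnpk arm were Krt5 (3.25 in log2(signal + 10), Hnrnpk arm minus lincRNA-p21 arm), Nkx2-3 (3.01), Krt18 (2.43), Krt4 (2.12) and Dppa5a (2.05). On the lower side they were Kctd12 (−2.22), Arhgap36 (−2.17), Prkcb (−1.86), Htra3 (−1.69) and Il7r (−1.62). Nkx2-3, a homeobox factor, had 18 and 14.5 in the control on days 9 and 12, 176.5 and 192 with the Hnrnpk hairpin, and 17 and 11.5 with the lincRNA-p21 hairpin. On day 6 it had 15, 196 and 15, so it stood apart in the Hnrnpk arm on all 3 days.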

How the results depend on the processing

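No library is a replicate of another, so precision rests on how arms and days vary, and depth is unknown. The shared late count of 0 was 0 to 56 when 1 library was left out (1 without the Hnrnpk library of day 12, 56 without the lincRNA-p21 library of day 9). It was 1965 with a term for each arm, 1843 for the Hnrnpk arm alone and 1866 for the lincRNA-p21 arm alone. The count of 1965, in alternatives chosen after seeing the data, was 645 to 3899 when 1 library was left out. The count of 649 between the hairpins was 59 to 2032 when 1 library was left out and 1970 with the 4 knockdown libraries only. Both counts of change over days were 0 in every alternative run; leaving out the control of day 9 or day 12 (between days 9 and 12) or of day 6 (against day 6) could not be fitted. The late difference of Pou5f1 was −1.01 to 0 when 1 library was left out (0 without the control of day 12), and in the lincRNA-p21 arm alone that of Hnrnpk was 0.20 and that of Klf4 0. Adding 1 or 50 in place of 10 moved the late difference by over 1.5 times for 18 of 93 named genes.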

Other observations

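Genes of the circadian clock, a feedback loop of transcription activators and repressors that runs in most cells, were mostly lower in the late knockdown libraries. The list of 19 was chosen after some of its members, Dbp and Per3 among them, had been seen, so it carries no test. Of 16 tested, 14 differences were below 0, with a median of −0.44 against −0.14 on day 6, and 9 were called lower and 0 higher in the fit with a term for each arm, where 7.55% of all genes were called lower; since members had been seen lower, the count is a description. Dbp, an output factor of the clock, had 1245 and 1853 in the control on days 9 and 12, 679.5 and 779 with the Hnrnpk hairpin, and 627 and 864.5 with the lincRNA-p21 hairpin. Its difference was −1.04 (SE 0.10, limma adjusted p = 0.0651 in the planned fit). Per3, a period repressor, had 1049 and 1701, 515 and 648, and 607 and 978 (−0.99, SE 0.18). Clock itself had 2547.5 and 2568.5 against 1744 to 1958 (−0.45, SE 0.09). Harvest times of day are not given in the sources used here, and their part in these values was not tested.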
